A study of Arabidopsis thaliana with 36 samples.

Results

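Suberin is a polyester of fatty acids, glycerol and ferulate that root endodermal cells, and later the outer bark-like layer of older roots, lay down on the inside of their cell walls, where it limits the passage of water and solutes. Its synthesis begins with the elongation of fatty acids, goes on with oxidation of the chain end or reduction to fatty alcohols, and ends with the joining of these parts to glycerol and ferulate before they leave the cell. In Arabidopsis roots, abscisic acid and MYB transcription factors promote this programme. The 9 suberin synthesis genes described here were taken by their gene identifiers, of 32833 genes in the count table. The rule that lists them uses no measured value, but they were chosen with earlier results of these data known. They are KCS2 (AT1G04220), an elongase of fatty acids; CYP86A1 (AT5G58860) and CYP86B1 (AT5G23190), cytochrome P450 enzymes that hydroxylate the chain end of fatty acids; FAR1 (AT5G22500), FAR4 (AT3G44540) and FAR5 (AT3G44550), reductases that make fatty alcohols; GPAT5 (AT3G11430), which attaches acyl chains to glycerol; ASFT (AT5G41040, named HHT1 in the table), which attaches ferulate; and MYB41 (AT4G28110), a transcription factor that promotes the expression of suberin genes.

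Roots and shoots of 11-day-old seedlings from liquid medium with sucrose were sequenced apart from each other. Each tissue had untreated tpst seedlings, tpst seedlings given 10 nM phytosulfokine (PSK) for 30 min, 2 h, 5 h or 11 days, and untreated Col-0 (WT) seedlings, with 3 replicates per group and 36 libraries in all. The tpst line is the T-DNA insertion mutant tpst-1 in the Col-0 background, and the gene it disrupts encodes the tyrosylprotein sulfotransferase that sulfates PSK. The same enzyme sulfates the CIF peptides that guide endodermal barrier formation and the PSY and RGF peptides, so the mutation bears on those peptides as well, and PSK was the only peptide given back. Each replicate pooled several seedlings, of which shoots and roots were separated. The 3 short exposures began with a swap to PSK medium, the 11 day plants germinated in it, and the untreated groups had no swap, so a short exposure and a change of medium cannot be told apart.

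Total counts per library lay between 21559655 and 36921510. TPST itself was at 11.4 to 16.6 CPM (counts scaled to the normalized library size) in the 15 tpst root libraries, against 27.5 to 29.1 CPM in Col-0 roots, and at 5.18 to 8.24 CPM in the 15 tpst shoot libraries, against 14.98 to 17.6 CPM in Col-0 shoots. A pair of root libraries stood apart. The summed level of 8 photosynthesis genes was 1480 CPM in the third untreated tpst root library, where the other root libraries had 210 to 658 CPM, and the summed level of the suberin genes was 556 CPM in the third root library with 5 h PSK, against 281 and 291 CPM in the other libraries of that group. For tpst against Col-0, for 5 h of PSK and for 2 genes at 11 days of PSK, root results are also given without 1 of these libraries, and all other root values include both. Fewer cells of a type and less RNA per cell cannot be told apart in these bulk samples.

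The genes lie on chromosomes 1, 3, 4 and 5 in TAIR10, the build of the count table. KCS2 is at chr1:1119699-1122786 on the minus strand, CYP86A1 at chr5:23765791-23768111 (minus), CYP86B1 at chr5:7803141-7805968 (minus), FAR1 at chr5:7470328-7474133 (plus), GPAT5 at chr3:3595694-3597952 (plus), ASFT at chr5:16431304-16433305 (plus) and MYB41 at chr4:13968029-13969525 (minus). FAR4 at chr3:16123426-16128030 and FAR5 at chr3:16137576-16142270 are neighbours on the plus strand, 9545 bp apart. At least 99.3% of the 50-base stretches in the exons of each gene occurred once in the genome, FAR4 and FAR5 included. For 4 of the 9 genes (FAR1, FAR4, ASFT and KCS2) the annotation has a gene on the other strand that overlaps them, and since the strand setting of the counting was not given in the sources used here, reads of those partners cannot be told apart.

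The 250 bases upstream of 4 of the genes are shown because MYB41 and GPAT5 hold the most matches to the core of the abscisic acid response element, ASFT alone holds an AC element, and FAR1 had a course in shoots unlike the others. Capitals mark matches on either strand to ACGTG (the core of the abscisic acid response element), to TTGAC (the core of the W-box, which WRKY factors bind) and to the AC element that MYB factors bind, either as ACCTACC or in its variant forms, one spelled ACCAACC and the other spelled ACCTAAC. The sequence is that of RefSeq TAIR10.1, 5′ to 3′ on the strand of the gene, and ends at the base before the annotated start.
MYB41 (chr4:13969526-13969775, minus strand): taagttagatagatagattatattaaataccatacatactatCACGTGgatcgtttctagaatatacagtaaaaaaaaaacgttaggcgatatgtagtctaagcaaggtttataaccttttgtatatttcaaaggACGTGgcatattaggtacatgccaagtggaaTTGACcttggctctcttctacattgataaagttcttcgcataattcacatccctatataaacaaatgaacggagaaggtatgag
GPAT5 (chr3:3595444-3595693, plus strand): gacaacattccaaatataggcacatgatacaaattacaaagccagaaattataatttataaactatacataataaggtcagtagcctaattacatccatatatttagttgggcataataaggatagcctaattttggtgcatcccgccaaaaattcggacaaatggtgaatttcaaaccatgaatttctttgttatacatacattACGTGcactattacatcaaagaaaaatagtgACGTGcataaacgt
ASFT (chr5:16431054-16431303, plus strand): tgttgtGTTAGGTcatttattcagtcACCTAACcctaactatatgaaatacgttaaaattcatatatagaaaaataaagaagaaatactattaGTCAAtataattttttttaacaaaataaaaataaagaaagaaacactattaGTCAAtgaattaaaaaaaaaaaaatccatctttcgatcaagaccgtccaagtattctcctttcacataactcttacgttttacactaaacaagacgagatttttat
FAR1 (chr5:7470078-7470327, plus strand): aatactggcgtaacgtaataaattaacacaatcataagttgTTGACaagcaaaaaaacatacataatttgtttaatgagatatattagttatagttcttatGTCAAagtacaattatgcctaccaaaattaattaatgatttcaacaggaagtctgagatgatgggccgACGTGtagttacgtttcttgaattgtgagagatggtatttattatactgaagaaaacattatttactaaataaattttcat

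MYB41 held 3 matches to ACGTG, at 208, 207 and 115 bases upstream. The first pair overlap on opposite strands and make up the palindrome CACGTG. GPAT5 held 2 matches, at 45 and 14 bases upstream, and FAR1 and FAR4 held 1 each, so 4 of 9 genes had the motif, against 21.8% of 32546 nuclear genes. TTGAC was found upstream of 6 of the 9 genes, against 44.3% of all genes. ASFT held ACCTAAC on opposite strands at 244 and 224 bases upstream, so that 1 of 9 genes had an AC element, against 6.07% of all genes. A match says only that these letters are present in the window.

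All 9 genes had more transcript in roots than in shoots of these seedlings. Per gene length, CYP86A1 and ASFT had the highest levels, at 50.6 ± 7.92 and 44.6 ± 5.07 FPKM in untreated tpst roots, against 60.3 ± 3.52 and 58.5 ± 7.63 FPKM in Col-0 roots (SD, n = 3). FAR5 came next in Col-0 roots at 23.9 ± 3.34 FPKM, and FAR1, CYP86B1, GPAT5 and FAR4 averaged 10.6 to 12.3 FPKM, with SDs of 0.879 to 1.39. KCS2 and MYB41 had the lowest levels there, at 6.54 ± 0.323 and 5.23 ± 1.25 FPKM. In Col-0 shoots ASFT, CYP86A1 and FAR1 were between 2.90 and 5.49 FPKM on average and the others below 1.1 FPKM.

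**Figure D1:**
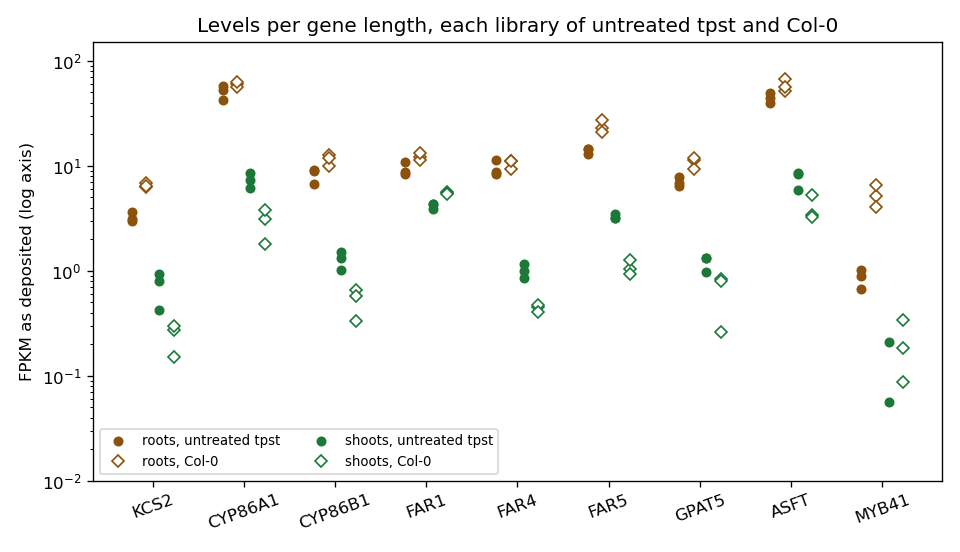
Levels of the 9 genes in FPKM as deposited, on a log axis, with 1 point per library for untreated tpst (filled) and Col-0 (open) in roots (brown) and shoots (green). All root points lie above the shoot points of the same gene and genotype, and 1 tpst shoot library with no MYB41 reads is off the axis. FPKM of roots and shoots are on scales set by the authors, and the tissues were compared by test on the counts.

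MYB41 had 0 to 9 counts in any shoot library and entered the fit of both tissues through its root counts alone, so its tissue difference was fixed by that filter. The other 8 genes were all called higher in roots than in shoots in Col-0, against 21.5% of all genes tested, and again in untreated tpst, against 19.8%. The log2 differences of CPM (roots over shoots) in untreated tpst were 1.16 ± 0.15 (SE) for FAR1, 2.09 ± 0.23 for FAR5 and 2.14 ± 0.35 for KCS2, with FAR4 the highest of the 8 at 3.24 ± 0.20. In Col-0 they were 1.13 ± 0.15 for FAR1, 4.43 ± 0.26 for FAR5, 4.53 ± 0.22 for FAR4 and 4.69 ± 0.40 for KCS2. FAR1 thus had the smallest difference in both genotypes, and for the other 7 tested genes it was smaller in tpst. MYB41 was not tested within shoots, where the other 8 were.

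In roots the suberin genes were lower in untreated tpst than in Col-0, and the difference was largest for the regulator MYB41. All 9 log2 fold changes of CPM were below 0, as for 47.3% of all genes, with a median of -0.48 (all genes, 0.02). A gene is said to have risen or fallen (called) where its fold was 2 or more and its adjusted p below 0.05. By this rule 2 of 9 fell in tpst and 0 rose, against 3.67% of all genes that fell and 3.12% that rose.

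MYB41 had 1.07, 1.63 and 1.43 CPM in untreated tpst roots, against 8.27, 6.47 and 10.5 CPM in Col-0 roots. Each tpst library lay below each Col-0 library, and the log2 fold change was -2.61 ± 0.60 (adjusted p = 0.00591). Leaving out any 1 of these tpst and Col-0 libraries kept the call, with log2 fold changes of -2.77 to -2.42. KCS2 had 6.99, 8.52 and 7.24 CPM in tpst roots, against 16.4, 15.03 and 15.03 CPM in Col-0 roots. These groups did not overlap either, and the log2 fold change was -1.03 ± 0.28 (adjusted p = 0.0161). The KCS2 call rests on a value close to the fold threshold and was lost without Col-0 replicate 1 (log2 -0.99), tpst replicate 1 (-0.97) or tpst replicate 3 (-0.99, adjusted p = 0.0536).

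The other 7 genes were not called. FAR5 had 49.7, 49.9 and 44.2 CPM in tpst roots, against 78.1, 73.0 and 94.8 CPM in Col-0 roots, a log2 difference of -0.78 ± 0.24 (adjusted p = 0.0305) that did not reach a fold of 2. GPAT5 had 15.9, 17.96 and 14.8 CPM in tpst roots, against 26.2, 21.9 and 27.5 CPM in Col-0 roots (log2 -0.64 ± 0.24, adjusted p = 0.0669). The tpst and Col-0 libraries of both genes did not overlap. FAR1 (log2 -0.41, adjusted p = 0.0523), ASFT (-0.40, adjusted p = 0.226) and CYP86B1 (-0.48, adjusted p = 0.193) were lower without overlap as well, so that 7 of 9 genes had tpst libraries that all lay below Col-0, against 22.3% of all genes. CYP86A1 (log2 -0.26, adjusted p = 0.322) and FAR4 (-0.16, adjusted p = 0.529) had overlapping groups. Without the third untreated tpst library all 9 log2 values stayed below 0, with a median of -0.35, and MYB41 was the 1 gene with an adjusted p under 0.05.

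**Figure D2:**
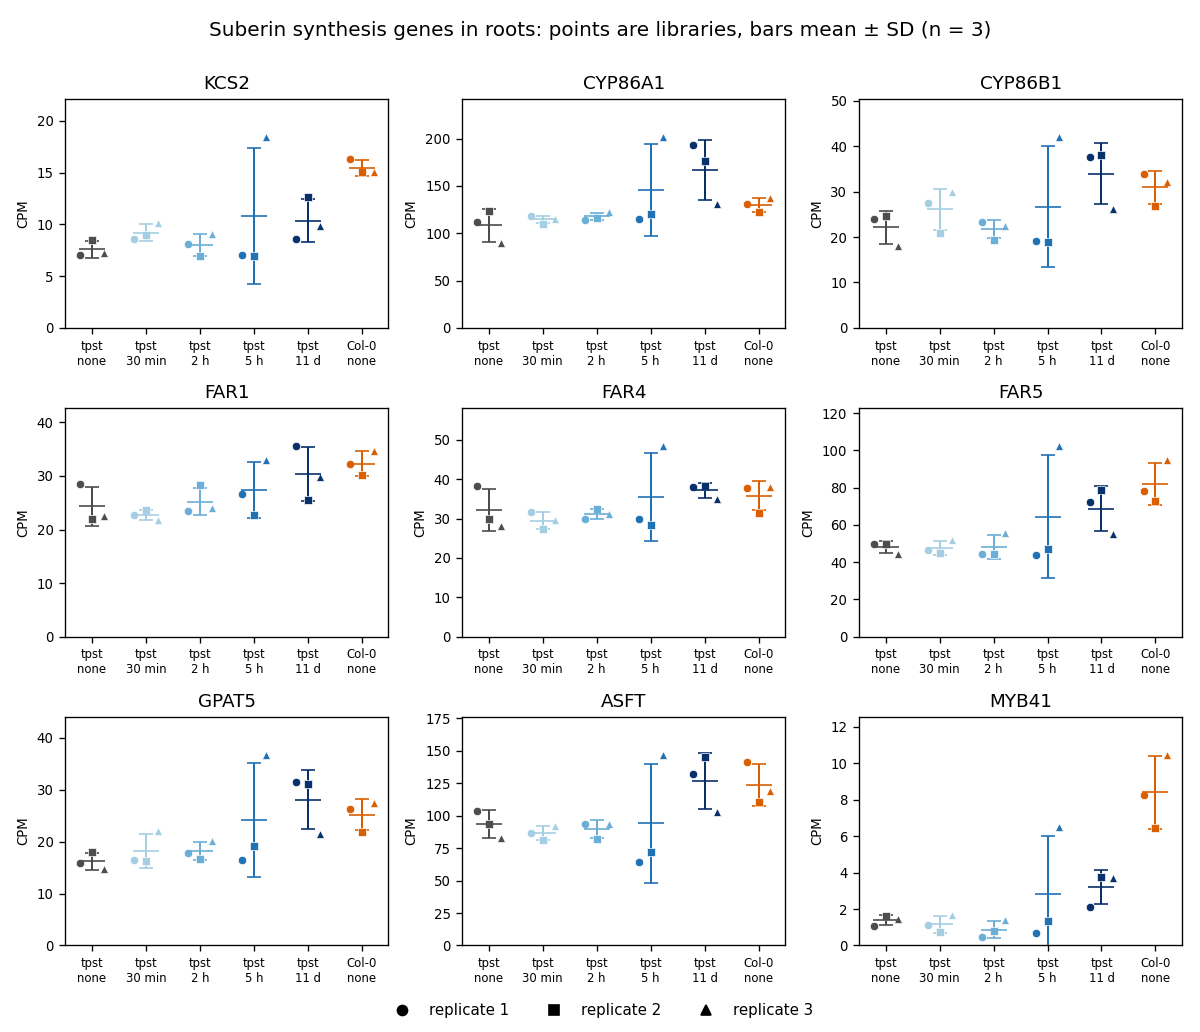
CPM of each gene in roots, with 1 point per library, marker shape by replicate, and bars for the mean ± SD (n = 3). The groups are untreated tpst, tpst with PSK for 30 min to 11 days, and Col-0, with bars below 0 ending at the axis. MYB41 and KCS2 are lower in untreated tpst than in Col-0, and the third library at 5 h lies above its group in every panel.

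Other genes of the root barrier fell in tpst roots in part, where 3.67% of all genes tested fell and 3.12% rose. Of 6 other enzymes of suberin and root wax synthesis 1 fell, GPAT7 (log2 -1.22 ± 0.36, adjusted p = 0.0218), an acyltransferase of the GPAT5 family. The elongases KCS1 (-0.85, adjusted p = 0.00303) and KCS20 (-0.57, adjusted p = 0.00660) and the caffeoyl transferase FACT (-0.61, adjusted p = 0.00702) were lower by less than a fold of 2. Of 5 tested suberin exporters 2 fell, the ABC transporter ABCG6 (-1.11 ± 0.32, adjusted p = 0.0214) and the lipid transfer protein LTPG15 (-1.09 ± 0.25, adjusted p = 0.00566). Of 10 other suberin regulators 1 fell, MYB39 (-1.58 ± 0.30, adjusted p = 0.00149). MYB67 (-0.72, adjusted p = 0.00828) and MYB92 (-0.40, adjusted p = 0.0429) were lower and WRKY9 (0.70, adjusted p = 0.0281) was higher, each by less than a fold of 2. Of 7 tested genes of abscisic acid synthesis and response 2 fell, NCED3 (-3.91 ± 0.75, adjusted p = 0.00171), a rate-limiting enzyme of abscisic acid synthesis, and RD29A (-1.59 ± 0.34, adjusted p = 0.00394), a gene induced by the hormone. CASP1, a membrane protein of the Casparian strip made only in the endodermis, fell as well (-1.06 ± 0.13, adjusted p = 4.45e-05) and so did CASP2 (-1.33 ± 0.12, adjusted p = 5.07e-06) and CASP4 (-1.92 ± 0.30, adjusted p = 0.000395). In the same list PER64 (-0.81) was lower and CIF1 (0.68) and CIF2 (0.36) were higher by less than a fold of 2, and CASP5, ESB1, MYB36, GSO1 and SGN1 had adjusted p-values of 0.182 to 0.877. In the lists nearest to suberin synthesis, 1 of 11 phenylpropanoid genes fell (PAL4, which starts the route to ferulate, log2 -1.58) and 1 of 12 tested cutin and shoot wax enzymes rose (CER6, an elongase, 1.51). The summed level of 4 endodermis markers (SCR, MYB36, CASP1 and GSO1) was 99.3 to 123 CPM in tpst roots, against 147 to 155 CPM in Col-0 roots, with none of the 4 at 0. Of these CASP1 fell, and MYB36 and GSO1 were not called. The sum of 3 stele markers (SHR, PHO1 and APL) was 416 to 491 CPM in tpst roots, against 349 to 381 CPM in Col-0 roots. That of 4 root hair markers was 171 to 300 CPM, against 136 to 198 CPM, with overlap. The part of the endodermis marker difference in the suberin gene values was not tested.

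The 3 short exposures to PSK gave no called change of a suberin gene in tpst roots. At 30 min 0 of 9 genes passed the test in edgeR or DESeq2, and 0 had an unadjusted p under 0.05, against 0.478% of all genes called, with log2 values of -0.22 to 0.28. At 2 h the counts were again 0 in both tools and 0 at an unadjusted p under 0.05, against 1.41% of all genes. KCS2, for example, had 8.07, 6.93 and 9.04 CPM at 2 h, against 6.99, 8.52 and 7.24 CPM in untreated tpst roots, and its groups overlapped.

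At 5 h the root values depended on 1 library. All 9 log2 values were above 0, as for 49.6% of all genes, with a median of 0.43, but 0 of 9 passed the test in edgeR or DESeq2 and 2 had an unadjusted p under 0.05, against 2.49% of all genes called. MYB41 had 0.683, 1.32 and 6.51 CPM at 5 h, against 1.07, 1.63 and 1.43 CPM in untreated tpst roots. ASFT had 64.2, 71.7 and 147 CPM at 5 h, against 104, 93.9 and 82.6 CPM in untreated tpst roots. For both genes the third 5 h library lay above all untreated libraries while the first 5 h library lay below all of them. Without the third 5 h library 6 of 9 log2 values were below 0, the median was -0.13, and ASFT was lower than in untreated tpst by less than a fold of 2 (log2 -0.47, adjusted p = 0.0237). That library had a photosynthesis sum of 655 CPM, against 472 and 370 CPM in the others of its group, and an endodermis marker sum of 123 CPM, against 111 and 119 CPM. Between 5 h and 30 min of PSK 0 of 9 genes passed the test in edgeR or DESeq2 and 0 had an unadjusted p under 0.05, against 0.988% of all genes.

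Roots that had grown in PSK for 11 days had higher values of all 9 genes than untreated tpst roots, but no change passed both thresholds in the fit of all root libraries. The log2 values ran from 0.21 (FAR4) to 1.22 (MYB41) with a median of 0.52, and 48.8% of all genes had a value above 0. This comparison shares the untreated tpst libraries with that of tpst against Col-0, so their results are not independent. In edgeR and in DESeq2 on all root libraries 0 of 9 genes were called, with 5 at an unadjusted p under 0.05, against 2.00% of all genes called. GPAT5 had 31.4, 31.1 and 21.5 CPM after 11 days, against 15.9, 17.96 and 14.8 CPM in untreated tpst roots, without overlap (log2 0.79 ± 0.24, adjusted p = 0.0352). CYP86A1 had 193, 177 and 131 CPM after 11 days, against 112, 124 and 89.7 CPM in untreated tpst roots, also without overlap (log2 0.62 ± 0.18, adjusted p = 0.0293). Both differences were smaller than a fold of 2, and without the third untreated tpst library they were 0.73 (GPAT5, adjusted p = 0.113) and 0.51 (CYP86A1, adjusted p = 0.122). MYB41 had 2.13, 3.78 and 3.71 CPM after 11 days, against 1.07, 1.63 and 1.43 CPM in untreated tpst roots, and these groups did not overlap (log2 1.22 ± 0.60, adjusted p = 0.180). DESeq2 on the 6 libraries compared alone called MYB41 higher (log2 1.23, adjusted p = 0.00890), but edgeR on the same libraries did not. Counting these, 6 of 9 genes had 11 day libraries that all lay above untreated tpst, against 15.9% of all genes. Of the other suberin genes 0 of 6 enzymes, 0 of 5 exporters and 0 of 10 regulators were called in edgeR, with 2, 1 and 5 at an unadjusted p under 0.05, among them KCS1 (0.63, adjusted p = 0.0235) and ANAC058 (0.91, adjusted p = 0.00181).

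Set beside Col-0, the 11 day roots had the lowest relative values for MYB41 and KCS2. The other 7 genes had log2 values of -0.25 (FAR5) to 0.36 (CYP86A1), the median over the 9 genes was 0.04, and 0 of 9 genes were called in edgeR, with 1 at an unadjusted p under 0.05, against 7.95% of all genes called. MYB41 was at 2.13 to 3.78 CPM in 11 day roots, against 6.47 to 10.5 CPM in Col-0 roots, without overlap (log2 -1.38 ± 0.56, adjusted p = 0.0762). MYB41 was called lower by DESeq2 (log2 -1.39, adjusted p = 0.0497), by edgeR with the replicate number as a block (-1.41, adjusted p = 0.0223) and by edgeR on the 6 libraries compared alone (-1.36, adjusted p = 0.00873). KCS2 was at 8.54 to 12.6 CPM in 11 day roots, against 15.03 to 16.4 CPM in Col-0 roots (log2 -0.58 ± 0.28, adjusted p = 0.131). Both comparisons of 11 day roots and of untreated tpst with Col-0 share the Col-0 libraries. Among the other regulators MYB39 was lower in 11 day roots than in Col-0 roots (log2 -1.46 ± 0.29, adjusted p = 0.00189) and ANAC058 was higher (1.14 ± 0.16, adjusted p = 0.000133), and GPAT7 was lower (-1.09 ± 0.35, adjusted p = 0.0304). NCED3 (-2.68), RD29A (-1.27) and CASP4 (-1.56) were lower there too, and CER6 (1.06) was higher. The endodermis marker sum was 117 to 142 CPM in 11 day roots, against 147 to 155 CPM in Col-0 roots.

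Shoots of untreated tpst had more transcript of most suberin genes than Col-0 shoots, the opposite direction to roots. Of the 8 genes tested 5 rose and 0 fell, against 4.36% of all genes that rose and 1.34% that fell, and the median log2 fold change was 1.23 (all genes, -0.01). FAR5 had 9.12, 8.32 and 8.38 CPM in tpst shoots, against 2.78, 2.503 and 3.30 CPM in Col-0 shoots. Its groups were far apart, with a log2 fold change of 1.59 ± 0.19 (adjusted p = 1.83e-05). CYP86A1 had 12.1, 14.02 and 10.1 CPM in tpst shoots, against 5.19, 3.01 and 6.19 CPM in Col-0 shoots (log2 1.34 ± 0.19, adjusted p = 7.90e-05). FAR4 had 2.24, 3.01 and 2.56 CPM in tpst shoots, against 1.18, 1.23 and 1.05 CPM in Col-0 shoots (log2 1.16 ± 0.26, adjusted p = 0.00311). These 3 calls held without any 1 of the tpst and Col-0 shoot libraries compared.

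CYP86B1 rose too (log2 1.29 ± 0.34, adjusted p = 0.0108), but not without Col-0 replicate 2, which had the lowest value (log2 1.05, adjusted p = 0.0624). KCS2 had 0.774, 1.69 and 1.45 CPM in tpst shoots, against 0.501, 0.544 and 0.275 CPM in Col-0 shoots (log2 1.55 ± 0.48, adjusted p = 0.0244). At 3 to 42 counts per shoot library it was the least precise of the tested genes, and its call was lost without tpst replicate 2 (adjusted p = 0.0947), tpst replicate 3 (0.0624) or Col-0 replicate 3 (0.0913). ASFT was higher by less than a fold of 2 (log2 0.93 ± 0.23, adjusted p = 0.00727) and GPAT5 did not pass the test (0.94 ± 0.34, adjusted p = 0.0549). FAR1 alone pointed the other way, with 7.74, 8.64 and 8.62 CPM in tpst shoots, against 11.3, 11.2 and 10.8 CPM in Col-0 shoots (log2 -0.41 ± 0.15, adjusted p = 0.0523). None of the 8 genes had overlapping groups, with 7 wholly higher in tpst shoots, against 19.8% of all genes, and 1 wholly lower, against 22.6%.

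**Figure D3:**
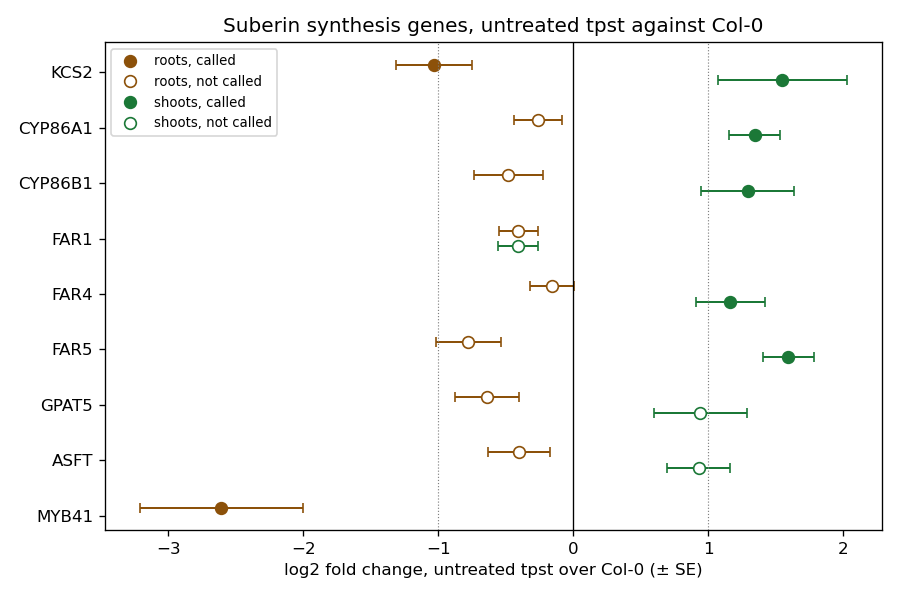
Log2 fold change of untreated tpst over Col-0 (± SE) for each gene in roots (brown) and shoots (green), with filled points for calls and dotted lines at a fold of 2. The 9 root values lie below 0 and 7 of the 8 shoot values above it, and MYB41 was not tested in shoots.

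The difference between the tissues was tested directly, as the log2 fold change of tpst over Col-0 in roots minus that in shoots. It was called below 0 for 7 of 9 genes, against 4.10% of all genes in that direction, from -1.29 ± 0.30 (FAR4) to -2.55 ± 0.55 (KCS2). FAR5 differed by -2.34 ± 0.34 (adjusted p = 3.14e-05) and CYP86A1 by -1.58 ± 0.28 (adjusted p = 0.000273). The GPAT5 difference (-1.57 ± 0.43, adjusted p = 0.0108) was lost without Col-0 shoot replicate 2 (-1.16, adjusted p = 0.0578). FAR1 had a difference of 0.03 ± 0.20 (adjusted p = 0.944), and MYB41, with 0 to 9 counts per shoot library, one of -1.40 ± 1.39 (adjusted p = 0.538).

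Some markers of other root cells were higher in tpst shoots as well. Of 4 root hair markers 3 rose in tpst shoots, against 4.36% of all genes that rose. They were EXPA7 (log2 2.43 ± 0.48), PRP3 (1.77 ± 0.39) and LRX1 (1.95 ± 0.47), with adjusted p-values of 0.00135, 0.00275 and 0.00597. Their summed level with COBL9 was 8.78 to 13.9 CPM in tpst shoots, against 1.53 to 4.52 CPM in Col-0 shoots, and 171 to 300 CPM in untreated tpst roots. The endodermis marker sum was 40.4 to 43.5 CPM in tpst shoots, against 45.2 to 49.9 CPM in Col-0 shoots, and MYB36 alone of the 4 rose (1.84 ± 0.40, adjusted p = 0.00256) while GSO1 fell (-1.08 ± 0.25, adjusted p = 0.00389). SCR, whose level is given only within the sum, made up most of it in shoots of both genotypes. Among 3 stele markers PHO1, a phosphate exporter, also rose in tpst shoots (1.32 ± 0.20, adjusted p = 0.000136). The other stele markers, SHR and APL, are given only in the sum with PHO1. That sum was 73.2 to 78.2 CPM in tpst shoots, against 44.8 to 54.5 CPM in Col-0 shoots. Among suberin genes outside the 9, FACT, which attaches caffeate to fatty alcohols, rose (1.21 ± 0.16, adjusted p = 4.76e-05), as did the regulator ANAC058 (1.33 ± 0.32, adjusted p = 0.00568). The part of root hair or other root RNA in the shoot values was not tested.

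After 11 days of PSK the root hair marker sum in tpst shoots was 2.89 to 4.90 CPM, against 8.78 to 13.9 CPM in untreated tpst shoots, and all 4 markers fell, against 7.76% of all genes. Of the 8 suberin genes tested, 1 (FAR1) was called at 11 days against untreated tpst shoots in edgeR, against 14.7% of all genes called in either direction. The other 7 were not called in edgeR or DESeq2. They had log2 values of -0.60 to 0.22, with 1 (FAR4) at an unadjusted p under 0.05. Relative to Col-0 shoots, 4 of 8 suberin genes were called higher and 1 lower in 11 day shoots, against 10.6% and 9.25% of all genes. In the same comparison 0 of 4 root hair markers were called in edgeR, with 0 at an unadjusted p under 0.05. The part of root RNA in the suberin values of these shoots was not tested. FAR5 had 7.46, 8.91 and 7.94 CPM in 11 day shoots, against 2.78, 2.503 and 3.30 CPM in Col-0 shoots (log2 1.51 ± 0.19, adjusted p = 3.15e-06). CYP86A1 had 11.4, 12.3 and 11.9 CPM in 11 day shoots, against 5.19, 3.01 and 6.19 CPM in Col-0 shoots (log2 1.32 ± 0.19, adjusted p = 1.40e-05). GPAT5 (1.17 ± 0.34, adjusted p = 0.00763) was called, but came under a fold of 2 without Col-0 replicate 2 (0.80). CYP86B1 (1.02 ± 0.35, adjusted p = 0.0186) had overlapping groups and lost the call without Col-0 replicate 2 (0.78, adjusted p = 0.0890) or 11 day replicate 3 (0.69, adjusted p = 0.110). ASFT was higher by less than a fold of 2 (0.68, adjusted p = 0.0195).

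FAR1 was the one suberin gene that fell with long exposure of shoots to PSK. It had 3.41, 3.65 and 4.31 CPM in 11 day shoots, against 7.74, 8.64 and 8.62 CPM in untreated tpst shoots, with no overlap (log2 -1.14 ± 0.16, adjusted p = 1.21e-05). It was 1 of 8 genes that fell at 11 days, against 7.76% of all genes that fell. Across the exposures FAR1 had 6.79, 5.57 and 5.55 CPM at 30 min, 4.51, 4.86 and 4.94 CPM at 2 h, and 6.36, 3.95 and 4.57 CPM at 5 h. Every one of these libraries lay below all untreated tpst libraries. The log2 differences were -0.48 ± 0.15 at 30 min (adjusted p = 0.0850), -0.81 ± 0.15 at 2 h (adjusted p = 0.000936) and -0.75 ± 0.15 at 5 h (adjusted p = 0.000489), each under a fold of 2, and the 4 exposures share the untreated libraries. Against Col-0 shoots, with 11.3, 11.2 and 10.8 CPM, the 11 day value was lower by a log2 of -1.55 ± 0.16 (adjusted p = 2.35e-07). In roots FAR1 had 35.6, 25.5 and 29.9 CPM after 11 days, against 28.6, 22.0 and 22.6 CPM in untreated tpst roots, with overlap. The response at 11 days differed between roots and shoots by a log2 of 1.44 ± 0.21 for FAR1 (adjusted p = 2.11e-05), the only called difference among the 9 genes at that time, against 2.74% of all genes in that direction.

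**Figure D4:**
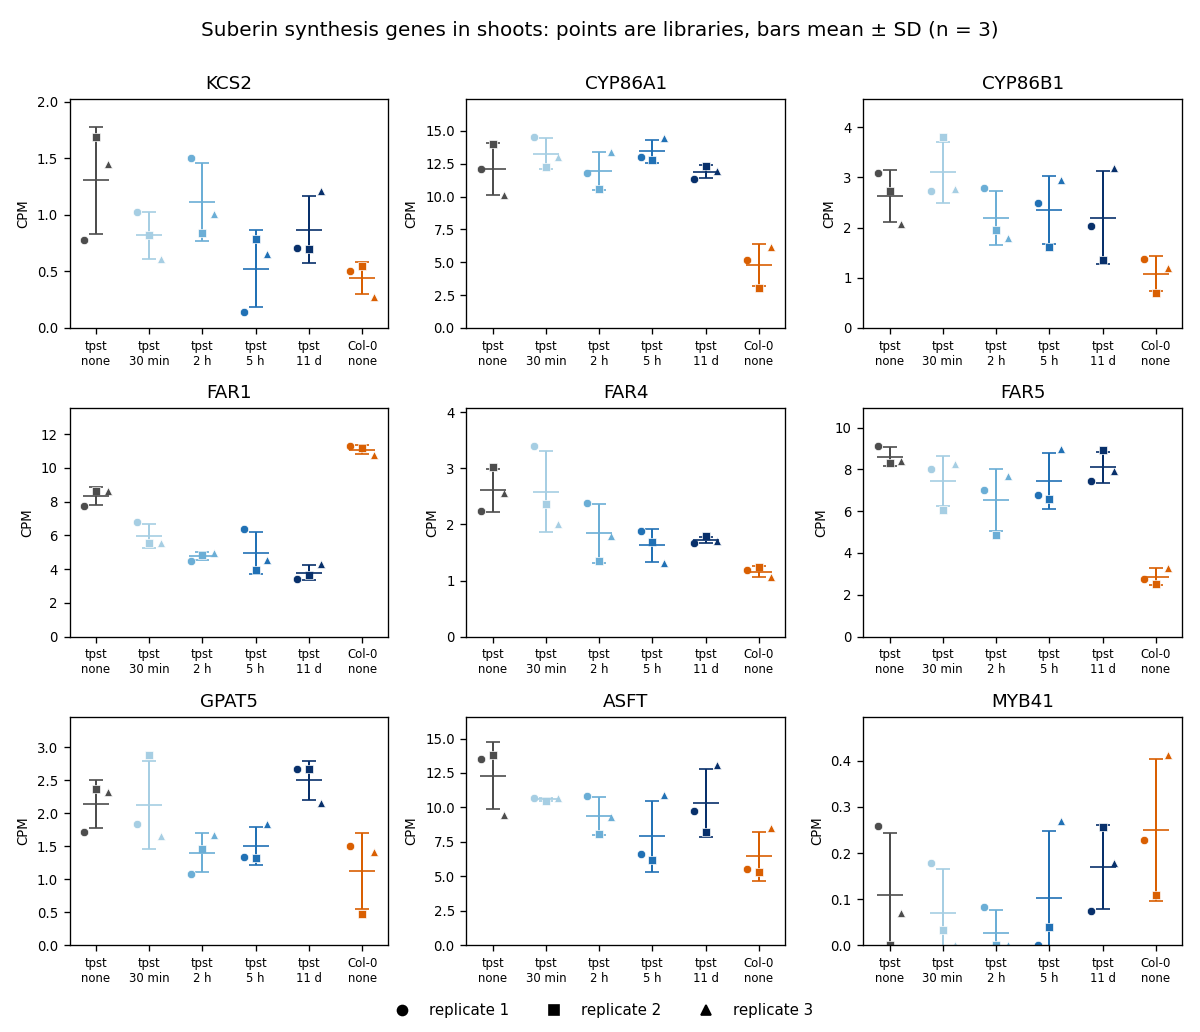
CPM of each gene in shoots, with 1 point per library, marker shape by replicate, and bars for the mean ± SD (n = 3), in the group order untreated tpst, PSK for 30 min to 11 days, Col-0, with bars below 0 ending at the axis. FAR1 lies below untreated tpst in all PSK libraries, and FAR5 and CYP86A1 stay above Col-0 in all tpst libraries.

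Apart from FAR1, KCS2 at 5 h was the only suberin gene called in shoots against untreated tpst. At 30 min 0 of 8 genes were called in edgeR or DESeq2, with 1 (FAR1) at an unadjusted p under 0.05, against 0.663% of all genes called. At 2 h 0 of 8 were called in either tool, with 2 at an unadjusted p under 0.05, against 4.29% of all genes. At 5 h KCS2 fell to 0.138, 0.783 and 0.652 CPM, against 0.774, 1.69 and 1.45 CPM in untreated tpst shoots (log2 -1.28 ± 0.46, adjusted p = 0.0258). This was 1 of 8 genes, against 9.30% of all genes that fell. The groups overlapped by a narrow margin, the lowest library had 3 counts, and the call was lost without PSK 5 h replicate 1 (log2 -0.86, adjusted p = 0.0988), untreated tpst replicate 2 (-1.07, 0.101) or untreated tpst replicate 3 (-1.20, 0.0674). FAR4 (log2 -0.68 ± 0.25, adjusted p = 0.0272) and ASFT (-0.63 ± 0.23, adjusted p = 0.0275) were lower at 5 h by less than a fold of 2. CYP86A1 stayed between 10.6 and 14.5 CPM in the shoot libraries of the 3 short exposures, against 10.1 to 14.02 CPM in untreated tpst shoots. Between 5 h and 30 min 0 of 8 genes were called in edgeR or DESeq2, with 1 at an unadjusted p under 0.05, against 10.7% of all genes called.

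**Figure D5:**
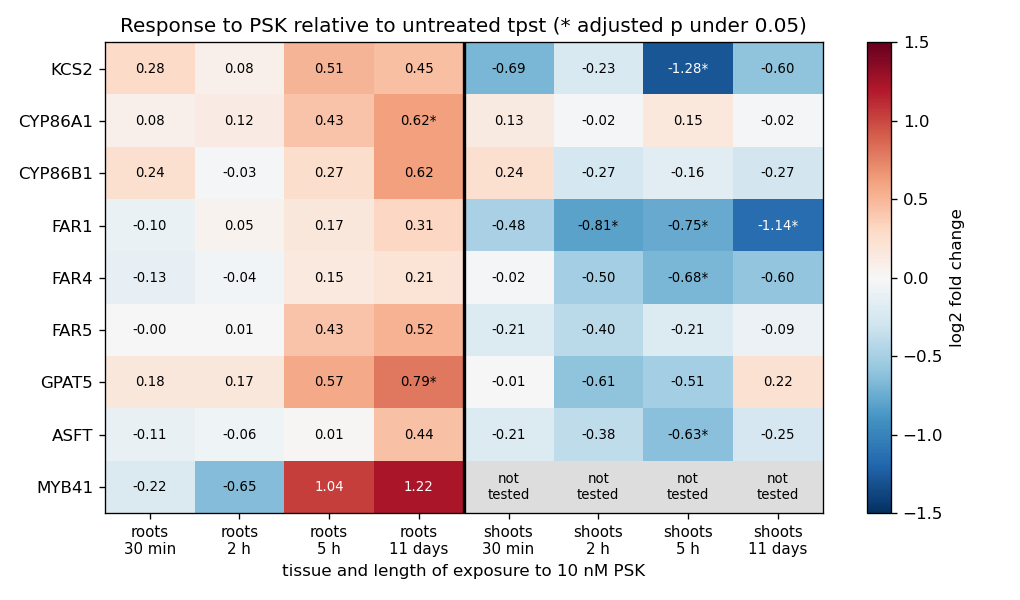
Log2 fold change of each gene after PSK over untreated tpst, by tissue and length of exposure, with stars for an adjusted p under 0.05 whatever the fold. Roots at 11 days are above 0 for all 9 genes, and the lowest shoot values are those of KCS2 at 5 h (-1.28) and FAR1 at 11 days (-1.14).

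Genes of cutin and shoot wax synthesis share enzyme families with those of suberin synthesis. Of 13 cutin and shoot wax genes 0 were called in shoots at 30 min or 2 h of PSK in edgeR, against 0.663% and 4.29% of all genes. At these times 2 and 5 of them had an unadjusted p under 0.05. At 5 h 6 of 13 fell and 0 rose, against 9.30% of all genes, among them CER1, an enzyme of wax alkane synthesis (log2 -2.43 ± 0.23, adjusted p = 1.10e-07), and at 11 days 3 of 13 fell and 0 rose, against 7.76% of all genes, CER1 (-1.66 ± 0.21, adjusted p = 5.17e-06), DCR (-1.69) and GPAT6 (-1.03). The difference between these counts and those of the suberin genes was not tested. The difference between roots and shoots in the response to PSK was called for 0 of 9 genes at 30 min and at 2 h in edgeR and DESeq2, with 0 and 1 at an unadjusted p under 0.05, against 0.00448% and 1.26% of all genes. At 5 h it was called in edgeR for 1 of 9, KCS2 (roots minus shoots 1.77 ± 0.53, adjusted p = 0.0163), against 3.76% of all genes in that direction. GPAT5 (1.06, adjusted p = 0.0621) was called as well by DESeq2 (1.07, adjusted p = 0.0362) and by edgeR with root and shoot libraries of a replicate as a block (1.02, adjusted p = 0.0327). FAR1 (0.90, adjusted p = 0.00244) and FAR4 (0.81, adjusted p = 0.0391) differed at 5 h by less than a fold of 2, as did FAR1 at 2 h (0.84, adjusted p = 0.0178). The 5 h difference of FAR1 was called without untreated tpst root replicate 1 (1.03), 5 h root replicate 2 (1.03) or 5 h shoot replicate 1 (1.12). The KCS2 call was lost without the third 5 h root library (1.13, adjusted p = 0.0711), without untreated tpst shoot replicate 2 (1.56, adjusted p = 0.0563) or without 5 h shoot replicate 1 (1.36, adjusted p = 0.0618).

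Over the 18 root libraries the 9 genes varied together. Pearson's r of log2 CPM between pairs of them ran from 0.53 (CYP86A1 with MYB41) to 0.92 (GPAT5 with FAR5), with a median of 0.78 over 36 pairs, and these libraries include the third untreated tpst library and the third 5 h library, which was high for all 9 genes. Against the mean of the other members, FAR5 had the highest r, 0.96, and FAR1 the lowest, 0.72. Of 19276 other genes with a mean of at least 1 CPM in roots, the 10 whose course was most like the mean of the members had r of 0.93 to 0.96 over the 18 libraries. They were AT2G22510, AT2G03200, PELPK1, AT4G20390, KCS1, AT4G36610, AT5G12420, AT4G38080, ABCG6 and AT1G74460. KCS1, an elongase (r = 0.95), and ABCG6 (r = 0.94) belong to the lists of other suberin genes. The gene most like CYP86A1 was AT2G23540 (r = 0.96), and the one most like ASFT was AT4G36610 (r = 0.94), with GPAT6, an acyltransferase of cutin synthesis, at r = 0.93.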

How the data were processed

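Shoots and roots of 12 groups were measured by RNA-seq of poly(A) RNA with 150-bp read pairs. Per the submitters' processing notes and the methods of the study, the authors trimmed reads with fastp, aligned them to TAIR10 with HISAT2 2.0.5 and counted them with featureCounts 1.5.0-p3; the strand setting is not given in the sources used here. The deposited table used for every test holds raw counts per gene, and the authors' FPKM, deposited beside it, were used only to compare levels between genes. Within a library the FPKM is count over gene length times 1 constant, which is not the total count, so FPKM of shoots and roots are on scales set by the authors.

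Low genes were left out with filterByExpr (minimum count 10), which kept 21358 genes in roots, 20811 in shoots and 22303 over both. For each tissue the 18 libraries in 6 groups were fitted together with edgeR 4.0.16 (quasi-likelihood F-test, TMM normalization, R 4.3.3), and all 36 libraries for comparisons of tissues. P-values were adjusted over all tested genes with the Benjamini-Hochberg method, and every adjusted p is from edgeR unless another tool is named. Each SE was derived from the F statistic, as log2 fold change over root F. CPM are from the fit of a tissue, except marker and member sums, which come from all 36 libraries normalized together. The 9 genes and the gene lists were chosen with earlier results of these data known. The genes to be named were all 9 in every comparison, list members called in roots for tpst against Col-0 or at 11 days of PSK, otherwise up to 4 per list in order of p, and the 10 genes most like the members. One result of the lists is not reported here. The study names the replicates as independent biological replicates.

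Promoter windows were cut from RefSeq TAIR10.1, in which 32520 of 32548 nuclear genes, and all 9 members, have the coordinates of the count table. Replicate numbers were checked for pairing by the correlation of deviations from group means: only for roots at 5 h against 30 min of PSK did all 3 numbers exceed 0.1 (r = 0.20 to 0.27), and the block changed no call there. Roots and shoots of a replicate were separated from the same seedlings per the study's methods, and the block for comparisons of tissues joins libraries of the same group and number, although the labels do not say that numbers match across tissues and in no group did all 3 exceed 0.1. Alternatives were RLE normalization, no filter, a minimum of 30 counts, a replicate block, nuclear genes only, no fold minimum, DESeq2 1.42.0, fits restricted to the 6 libraries being compared, and each library of the groups compared left out. Libraries of the other groups in a fit were not left out for that comparison. Scripts were tested on simulated counts. Figures were drawn with matplotlib 3.10.9 in Python 3.11.15.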

Additional observations from a re-analysis of the deposited data

Results flagged for a closer look

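The 9 results here were picked out because the effect of a contrast differed between roots and shoots by a test of the difference itself. For untreated tpst against Col-0 the log2 fold change in roots minus that in shoots was -1.57 for GPAT5, -1.58 for CYP86A1, -1.75 for CYP86B1, -1.29 for FAR4, -2.34 for FAR5, -1.30 for ASFT and -2.55 for KCS2. After 5 h of PSK the difference was 1.77 for KCS2, and after 11 days it was 1.44 for FAR1. Groups of 3 libraries were too small to test for single outlying samples.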

How the results depend on the processing

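Of 2873 recomputed values of single genes, 2824 stayed on the same side of the threshold, 30 passed it newly and 19 no longer passed it, and 0 of 615 recomputed values of called genes changed sign. RLE normalization, no filter, the stricter filter and nuclear genes alone changed no call of the 9 genes. Without a fold minimum the counts of suberin genes called were 3 for tpst against Col-0 in roots, 6 in shoots, 6 in 11 day shoots against Col-0, 2 in roots at 11 days of PSK, 1 in shoots at 2 h, 4 in shoots at 5 h and 1 in shoots at 5 h against 30 min, and for roots minus shoots 1 at 2 h, 3 at 5 h and 2 at 11 days. DESeq2 on the same libraries called 1 in 11 day roots against Col-0 and 2 in roots minus shoots at 5 h. On the 6 libraries of a comparison alone, edgeR and DESeq2 each called 1 in 11 day roots against Col-0 (MYB41) and 0 in shoots at 5 h, and DESeq2 called 1 in 11 day roots against untreated tpst (MYB41, log2 1.23, adjusted p = 0.00890). With the replicate number as a block 1 was called in 11 day roots against Col-0 (MYB41) and 2 in roots minus shoots at 5 h (KCS2 and GPAT5), and the block changed no other call; apart from roots at 5 h against 30 min, samples of 1 tissue share only a number. Leaving out 1 library of the groups compared gave 1 to 2 called genes for tpst against Col-0 in roots, 0 to 1 in shoots at 5 h, 3 to 5 for 11 day shoots against Col-0, 4 to 6 for tpst against Col-0 in shoots, 6 to 7 for its roots minus shoots and 0 to 3 for that of 5 h. Where a call changed and no library is named, the cause was not tested. KCS2 and MYB41 in shoots, with 3 to 42 and 0 to 9 counts, are limited by depth.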
